A study of Homo sapiens with 4 samples.

Results

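Chromodomain proteins read methylated lysines on histone tails. The genes described here are 8 readers of this kind other than *CDYL* itself, the 3 HP1 genes *CBX1*, *CBX3* and *CBX5*, the Polycomb genes *CBX2*, *CBX6*, *CBX7* and *CBX8*, and *MPHOSPH8*, which encodes MPP8. They were chosen by name, as members of this family, from the 58522 genes of the deposited table, with earlier results of these data known. HP1 proteins bind H3K9me3 through the chromodomain, pair through a chromoshadow domain, and build heterochromatin. The Polycomb CBX proteins bind H3K27me3 and bring the canonical form of Polycomb repressive complex 1 (PRC1), a ubiquitin ligase for histone H2A, to silent genes. MPP8 binds H3K9me3 as a subunit of the HUSH complex, which silences transposons and other foreign-like DNA. CDYL also carries a chromodomain and is described as a reader of H3K9me3 and H3K27me3, the same marks.

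RNA-seq was used to measure transcripts of Ishikawa cells, a human cell line established from an adenocarcinoma of the endometrium and labelled as epithelial. The control group was transduced with a negative control shRNA and the *CDYL*-sh group with shRNA against *CDYL*. There were 2 libraries in each group, with puromycin selection of the transduced cells in the study's methods. The *CDYL*-sh libraries are titled sh1 and sh2. The study named hairpins CDYL-sh1, CDYL-sh2 and CDYL-sh3 and gave knockdown efficiencies for CDYL-sh1 and CDYL-sh3. The sources do not state which hairpin was used in which *CDYL*-sh library, so the titles may number hairpins or replicates. Replicate below means the number in the title. Whether a group's libraries stem from 2 cultures or 1 is not stated either, so p-values measure only the spread between these libraries.

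The libraries held 22341852 to 27688447 expected counts. *CDYL*, the targeted gene, was at 50.4 and 53.0 CPM in control and at 11.4 and 9.70 CPM in *CDYL*-sh, where CPM are counts relative to library size after TMM scaling. Of 11 epithelial and endometrial markers, 10 passed the filter on low counts, with a summed level of 4040 to 4520 CPM per library, while *ESR1*, the estrogen receptor gene often used to describe this line, did not pass. Of these 10 markers 4 passed edgeR's test, the keratin genes *KRT19* (mean 356 to 577 CPM) and *KRT7* (19.1 to 27.6 CPM) and the claudin gene *CLDN4* (244 to 349 CPM) as higher and *KRT18* (808 to 639 CPM) as lower. The 14 markers of other cell types summed to 35.8 and 42.9 CPM in control and to 46.2 and 42.6 CPM in *CDYL*-sh, and 3 of them had no count in any library. Of the 8 tested, 2 rose and 2 fell. Thus 40% of the tested epithelial markers and 50% of these passed, beside 25.7% of all genes tested. The lysosomal gene *CD68* rose from a mean of 9.68 to 19.4 CPM and the endothelial gene *PECAM1* from 1.79 to 5.78 CPM, while the collagen gene *COL1A1* fell from 14.7 to 8.28 CPM and the smooth muscle actin gene *ACTA2* from 1.5 to 0.486 CPM. Markers outside the 3 most abundant of a list were named after their values were seen, and the part of these markers in the results below was not tested. None of 12 reference genes passed edgeR's test, and none had an unadjusted p under 0.05 there or with DESeq2, limma-voom or limma on FPKM, although 3 passed with offsets for GC content and transcript length and 1 with a replicate block.

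The study named 3 hairpin targets in *CDYL*, printed below in the order CDYL-sh1, CDYL-sh2 and CDYL-sh3, and a control sequence. They are printed here because a hairpin that also matched a *CBX* transcript would change what the comparison measures. The capitals mark the longest stretch that each shares with any of 42 annotated transcripts of the 8 genes.
control hairpin: ttctccgaacGTGTCACGtaa
first hairpin against CDYL: gcgtcTTCTGTTGTggacttgactt
another hairpin against CDYL: gcaagataatgggAGGAGCATCTgca
last hairpin against CDYL: gagatattgTGGTCAGGAA
The longest shared stretches were 8 to 10 bases, in *CBX3* for the control sequence and in *CBX5* for each *CDYL* sequence. No transcript of the 8 genes matched a target over its full length, and the closest site had 6 mismatches. These counts cover whole targets, so they cannot decide whether a shorter shared stretch acts on a transcript, which was not tested. For the last hairpin that stretch is the final 10 bases of its target, shared with *CBX5*, a gene described below as lower in *CDYL*-sh. Only the first stretch of greatest length was kept for each sequence, so equal ones in other genes are not shown. The canonical *CBX5* transcript, at 11546 bases, is the longest of the 8 genes. How often unrelated sequences share as many bases was not counted. Of 9 annotated *CDYL* transcripts, the first and the last hairpin targets each matched 7 in full and the other matched none.

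All 8 genes passed the filter on low counts. On a per-length scale (FPKM, fragments relative to transcript length and library depth), *CBX3* was the most abundant in control cells at 78.3 and 67.8 FPKM. *CBX1* followed at 49.5 and 47.9 FPKM and *CBX6* at 35.7 and 39.4 FPKM. *CBX2* was at 14.6 and 15.9 FPKM, *CBX8* at 10.8 and 10.8, *CBX5* at 9.98 and 8.89, *CBX7* at 8.22 and 7.54, and *MPHOSPH8* at 4.95 and 4.62 FPKM. No neighbours in this order overlapped between the control libraries. In *CDYL*-sh cells *CBX3*, *CBX1* and *CBX6* again stood first, but *CBX2* (11.8 and 10.3 FPKM) and *CBX8* (9.88 and 12.5 FPKM) overlapped, and so did *CBX5* (7.93 and 8.68 FPKM) and *CBX7* (7.79 and 8.81 FPKM). *MPHOSPH8* was the lowest of the 8 in every library.

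Of the 8 genes, *MPHOSPH8* was higher and *CBX2* and *CBX5* were lower in *CDYL*-sh, in a quasi-likelihood fit with edgeR over the 16158 genes tested (adjusted p under 0.05). Fold changes below carry their standard error (SE). The background was large: 25.7% of all genes tested were called, 13.6% as higher and 12.1% as lower. With 3 of 8 called, the count of members is not set apart from this background, and the values of single genes are described below. Over the 8 genes the log2 fold changes had a median of -0.02, beside 0.01 over all genes tested. The CPM of the groups did not overlap for 4 of the 8 genes, and for 64.3% of all genes tested.

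**Figure D1:**
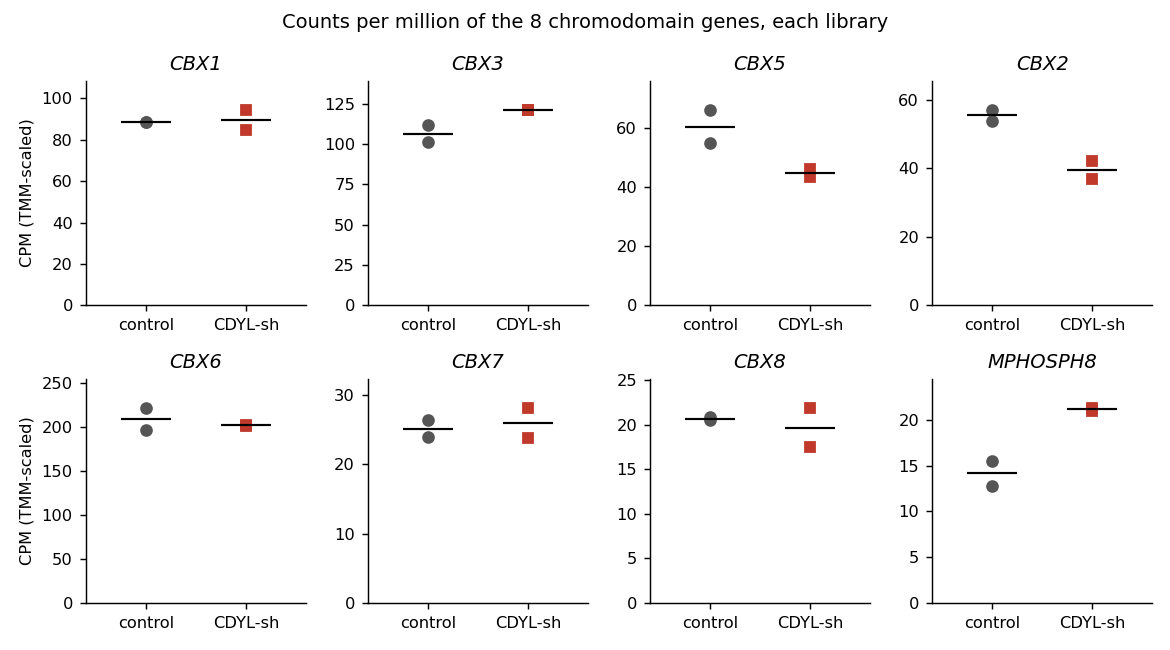
CPM (y axis, scaled by TMM library sizes, from 0) of each of the 8 genes in the 2 control libraries (grey circles) and the 2 CDYL-sh libraries (red squares), with a line at each group's mean. CBX2 and CBX5 sit lower and MPHOSPH8 higher in both CDYL-sh libraries, and CBX3 also does not overlap, at 121 and 121 CPM against 112 and 101 CPM.

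Among the HP1 genes only *CBX5* passed the test. *CBX5* (ENSG00000094916) encodes HP1 alpha, the form most concentrated in constitutive heterochromatin, and is found at positions 54230942 to 54280133 of chromosome 12 of GRCh38, minus strand. It measured 65.9 and 54.8 CPM in control and 46.0 and 43.3 CPM in *CDYL*-sh. Both *CDYL*-sh libraries were below both control libraries, and the control libraries lay farther apart than the *CDYL*-sh libraries. The log2 fold change was -0.43 ± 0.12 (SE, 95% interval -0.68 to -0.18, adjusted p = 0.012 from edgeR), or 1.35-fold lower. In RNA from bulk cells, fewer cells with a transcript and less of it in each cell cannot be told apart.

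The fall of *CBX5* depended on which libraries were kept and on the unit. With edgeR it did not pass without control replicate 1 (log2 fold change -0.31, adjusted p = 0.126) or without *CDYL*-sh replicate 2 (-0.39, adjusted p = 0.0942), in a range of adjusted p from 2.69e-05 to 0.481 over 14 alternatives. With offsets for GC content and transcript length, a correction of each library for a trend with base composition, its log2 fold change was -0.66 and passed. On the FPKM scale it was -0.16 with limma on log2(FPKM + 1) and did not pass.

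*CBX5* starts next to *HNRNPA1*, an abundant splicing factor gene read from the other strand, and the 59 bases between the annotated starts are shown as the stretch from which both transcripts diverge. The sequence is chr12:54280134-54280192 of GRCh38, minus strand (5′ to 3′ towards *CBX5*), from the RefSeq window of GRCh38.p14, with capitals for the GC box GGGCGG, for the CCAAT box on the opposite strand and for the NRF1 motif.
CBX5: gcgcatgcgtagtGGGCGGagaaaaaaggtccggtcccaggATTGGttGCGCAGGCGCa
An annotated long noncoding gene on the other strand also spans these bases. The 300-base RefSeq window around this *CBX5* start, 250 bases before and 50 after, held 2 matches of the E-box CACGTG, 1 of CCAAT, 2 of the GC box GGGCGG and 2 of the NRF1 motif, searched on both strands. These motifs were found in 7.3%, 34.6%, 45% and 5.8% of 35116 such windows, in that order, and a match is only a match of letters. The other *CBX5* windows, at starts 54259545 and 54259586, each held 1 match of CCAAT and none of the other motifs. Which start is used in these cells was not tested. *HNRNPA1* did not share the fall of *CBX5*, with a log2 fold change of 0.18 ± 0.11 (SE, adjusted p = 0.254 from edgeR). On the other side of *CBX5*, the uracil glycosylase gene *SMUG1* had one of 0.16 ± 0.14 (SE).

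*CBX3* (ENSG00000122565), which encodes HP1 gamma, is found at positions 26201162 to 26213607 of chromosome 7, plus strand. It stood at 112 and 101 CPM in control and at 121 and 121 CPM in *CDYL*-sh. Both *CDYL*-sh libraries were above both control libraries, but the gene did not pass the test, with a log2 fold change of 0.18 ± 0.10 (SE, 95% interval -0.04 to 0.40, adjusted p = 0.21 from edgeR). With offsets for GC content and transcript length the value was -0.08, so its direction is not fixed by these data. The canonical transcript of *CBX3* has a GC content of 35.3%, the lowest of the 8 genes, and the genes tested with a GC content under 40% had a median log2 fold change of 0.23. *CBX3* overlaps the start of *HNRNPA2B1*, a splicing factor gene on the minus strand, by 368 bases. *HNRNPA2B1* had a log2 fold change of 0.12 ± 0.11 (SE), near that of *CBX3*. Reads may be divided between these genes, as described below, so their values may not be independent.

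*CBX1* (ENSG00000108468) encodes HP1 beta and is found at positions 48070052 to 48101478 of chromosome 17, minus strand. Its level was 88.8 and 88.7 CPM in control and 94.3 and 84.7 CPM in *CDYL*-sh. The control libraries lay between the *CDYL*-sh libraries, and the log2 fold change was 0.01 ± 0.11 (SE, 95% interval -0.21 to 0.23). Its neighbours on both sides did not pass either, *NFE2L1*, a transcription factor gene for proteasome subunits, at -0.27 ± 0.11 (SE) and the sorting nexin gene *SNX11* at -0.16 ± 0.13 (SE).

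The make-up of the HP1 transcripts, as a percent of the summed FPKM of the 3 genes, was 35.9 and 38.5% *CBX1*, 56.8 and 54.4% *CBX3* and 7.24 and 7.13% *CBX5* in the control libraries. The *CDYL*-sh libraries had 36.0 and 32.9% *CBX1*, 58.3 and 60.6% *CBX3* and 5.62 and 6.54% *CBX5*. *CBX3* took a larger and *CBX5* a smaller share in both *CDYL*-sh libraries, and *CBX1* overlapped between the groups. The summed HP1 level was 138 and 125 FPKM in control and 141 and 133 FPKM in *CDYL*-sh, also overlapping. These shares are given with no test, since the smallest two-sided p of an exact permutation test of 2 libraries against 2 is 0.333. By CPM, which leaves length out, *CBX5* was 24.7 and 22.5% of the HP1 sum in control and 17.6 and 17.4% in *CDYL*-sh.

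Among the Polycomb genes described here only *CBX2* passed the test. *CBX2* (ENSG00000173894), whose protein compacts chromatin as part of PRC1 and is needed for gonad development, is found at positions 79778148 to 79787983 of chromosome 17, plus strand. It measured 53.9 and 56.9 CPM in control and 42.1 and 36.7 CPM in *CDYL*-sh. Both *CDYL*-sh libraries were well below both control libraries. The log2 fold change was -0.49 ± 0.12 (SE, 95% interval -0.73 to -0.24, adjusted p = 0.005 from edgeR), or 1.40-fold lower. Without *CDYL*-sh replicate 2 it was -0.39 and did not pass (adjusted p = 0.10 from edgeR, within 0.000932 to 0.113 over 14 alternatives). It was -0.44 and did not pass with limma on log2(FPKM + 1), and with offsets for GC content and transcript length it was -0.40 and passed.

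*CBX2* lies next to *CBX8*, which ends 4148 bases beyond it on the other strand. *CBX8* (ENSG00000141570), also a PRC1 subunit, spans 79792132 to 79801683 on the minus strand of chromosome 17. It stood at 20.9 and 20.5 CPM in control and at 17.5 and 21.9 CPM in *CDYL*-sh, where the libraries lay on either side of the control values. Its log2 fold change was -0.07 ± 0.14 (SE, 95% interval -0.37 to 0.23). The difference between the changes of *CBX2* and *CBX8* was not tested.

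*CBX6* (ENSG00000183741) and *CBX7* (ENSG00000100307), Polycomb readers of which CBX7 also binds noncoding RNA, are both on chromosome 22 (minus strand), from 38861422 to 38872249 and from 39120167 to 39152680. *CBX6* was at 197 and 222 CPM in control and at 202 and 203 CPM in *CDYL*-sh, so that its log2 fold change was -0.05 ± 0.10 (SE, 95% interval -0.27 to 0.17). *CBX7* was at 23.9 and 26.3 CPM in control and at 23.7 and 28.1 CPM in *CDYL*-sh, so that its log2 fold change was 0.05 ± 0.13 (SE, 95% interval -0.23 to 0.32). The groups overlapped for both genes. The neighbour of *CBX6* on one side, the neuronal pentraxin receptor gene *NPTXR*, 17393 bases away, rose from a mean of 124 to 174 CPM (log2 fold change 0.49 ± 0.10 SE, adjusted p = 0.00217 from edgeR). On the other side, the cytidine deaminase gene *APOBEC3B* had a log2 fold change of 0.22 ± 0.13 (SE), and *APOBEC3A* did not pass the filter.

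By FPKM, *CBX6* held the largest share of the summed transcripts of *CBX2*, *CBX6*, *CBX7* and *CBX8* in every library. *CBX2* was 21.1 and 21.5% of this sum in control and 17.8 and 15.3% in *CDYL*-sh, a smaller share in both. *CBX6* was 51.5 and 53.5% in control and 55.6 and 52.9% in *CDYL*-sh. *CBX8* took 15.5 and 14.7% in control and 14.9 and 18.6% in *CDYL*-sh, and *CBX7* took 11.9 and 10.2% in control and 11.7 and 13.2% in *CDYL*-sh. The FPKM shares of *CBX6*, *CBX7* and *CBX8* overlapped between the groups. By CPM the share of *CBX2* was again smaller, at 18.2 and 17.5% in control and 14.7 and 12.7% in *CDYL*-sh. The CPM shares of *CBX6* (66.6 and 68.1% against 70.8 and 70.0%) and *CBX7* (8.08 and 8.09% against 8.31 and 9.72%) did not overlap, and those of *CBX8* did (7.05 and 6.29% against 6.14 and 7.56%). Shares of a sum are tied to each other, so a smaller share of *CBX2* makes the rest larger. The CPM of *CBX6* and *CBX7* themselves overlapped, as given above.

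**Figure D2:**
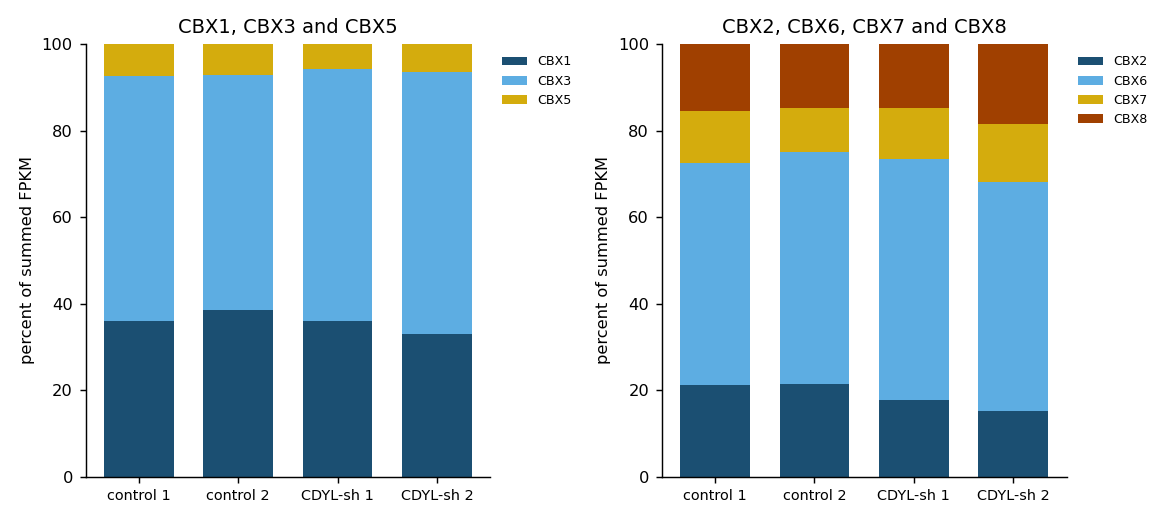
Percent of summed FPKM (y axis) held by each gene in each of the 4 libraries, for the 3 HP1 genes on the left and CBX2, CBX6, CBX7 and CBX8 on the right. CBX5 narrows from 7.24 and 7.13% to 5.62 and 6.54%, and CBX2 from 21.1 and 21.5% to 17.8 and 15.3%.

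*MPHOSPH8* was the member that rose. The gene (ENSG00000196199) is found at positions 19633659 to 19673441 of chromosome 13, plus strand. It measured 15.5 and 12.8 CPM in control and 21.0 and 21.3 CPM in *CDYL*-sh. Both *CDYL*-sh libraries were above both control libraries. The log2 fold change was 0.58 ± 0.15 (SE, 95% interval 0.27 to 0.88, adjusted p = 0.0068 from edgeR), or 1.49-fold higher. It had 339 to 587 counts in a library. Without *CDYL*-sh replicate 2 the value was 0.57 and did not pass (adjusted p = 0.0585 from edgeR, within 0.00171 to 0.336 over 14 alternatives). It was 0.26 and did not pass with limma on log2(FPKM + 1), and with offsets for GC content and transcript length it was 0.54 and passed.

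The 250 bases before the start of *MPHOSPH8* are shown as the promoter of the 1 member that rose. The sequence is chr13:19633409-19633658, plus strand, from RefSeq on GRCh38.p14, with capitals for the ETS core CTTCCG and, on the opposite strand, for the GC box and for the CCAAT box.
MPHOSPH8: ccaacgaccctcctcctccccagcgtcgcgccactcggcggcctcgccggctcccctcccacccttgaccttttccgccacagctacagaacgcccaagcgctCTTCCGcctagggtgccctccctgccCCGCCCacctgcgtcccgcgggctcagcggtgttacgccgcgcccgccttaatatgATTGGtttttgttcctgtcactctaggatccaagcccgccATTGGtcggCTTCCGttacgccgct
CTTCCG was found in 19.5% of all windows. No other annotated gene overlaps these bases. The window of 300 bases held 2 matches of CTTCCG, 2 of CCAAT and 1 of GGGCGG, and no match of CACGTG or the NRF1 motif. The next gene, *PSPC1*, which encodes a protein of nuclear paraspeckles and ends 1310 bases beyond *MPHOSPH8* on the other strand, had a log2 fold change of -0.29 ± 0.14 (SE). *PARP4*, put in the list of neighbours by mistake and 4.75 Mb away, rose by 0.83 ± 0.11 on the log2 scale (SE, adjusted p = 5.01e-05 from edgeR).

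RefSeq windows were found for 6 of the 8 genes. *CBX1*, *CBX6* and *CBX7* had the windows richest in GC, at 75.7%, 76.7% and 77.7%, with 38, 47 and 50 CpG. Those of *CBX3*, *CBX5* (at the start beside *HNRNPA1*, 1 of 3 windows of this gene) and *MPHOSPH8* had 60%, 57.3% and 66.7% GC with 19, 25 and 31 CpG.

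**Figure D3:**
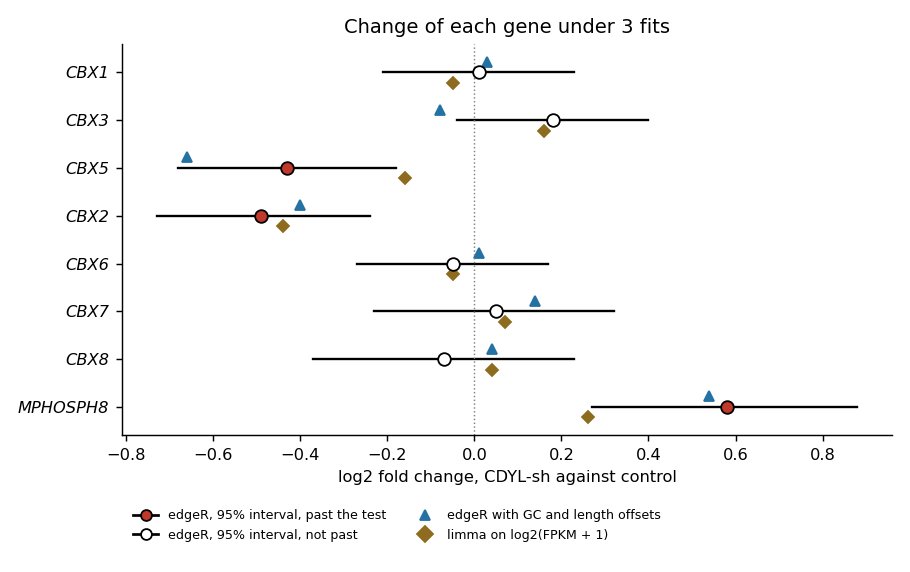
Log2 fold change of each gene, CDYL-sh against control (x axis), by edgeR with its 95% interval (circles, filled where past the test), by edgeR with offsets for GC content and transcript length (triangles) and by limma on log2(FPKM + 1) (diamonds). CBX5 moves from -0.43 to -0.66 with the offsets and to -0.16 on the FPKM scale, and MPHOSPH8 from 0.58 to 0.26 on the FPKM scale.

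The changes of *CBX5* and *MPHOSPH8* were smaller in FPKM than in counts, and the gene length used by the deposited FPKM differed between libraries. This length follows from count, FPKM and total count, and RSEM, named in the submitters' processing notes, estimates it from the mix of isoforms. For *CBX5* it was 6641 and 6066 bases in control and 5917 and 4925 bases in *CDYL*-sh. For *MPHOSPH8* it was 3145 and 2720 bases in control and 3373 and 3819 bases in *CDYL*-sh. *CBX5* was thus counted as shorter and *MPHOSPH8* as longer in both *CDYL*-sh libraries. The differences in mean log2 length were -0.23 and 0.30, and 10.5% and 7.05% of 12614 genes with at least 1 FPKM in every library differed by as much, in a median gene by 0.0411. Smaller differences were -0.11 in *CBX8*, 0.07 in *CBX1*, 0.04 in *CBX3* and 0.02 in *CBX6*. In that order, 27.3%, 36.7%, 50.8% and 62.9% of the 12614 genes differed by as much. Their groups also did not overlap, but how often this holds over all genes was not counted. *CBX2*, with 3713 and 3529 bases in control and 3652 and 3537 bases in *CDYL*-sh, kept its length within the spread of its libraries, and its change was close on both scales. The canonical *CBX5* transcript is 11546 bases long and that of *MPHOSPH8* 4239. Whether the isoforms of *CBX5* or *MPHOSPH8* changed was not tested, since the table holds no value per isoform.

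**Figure D4:**
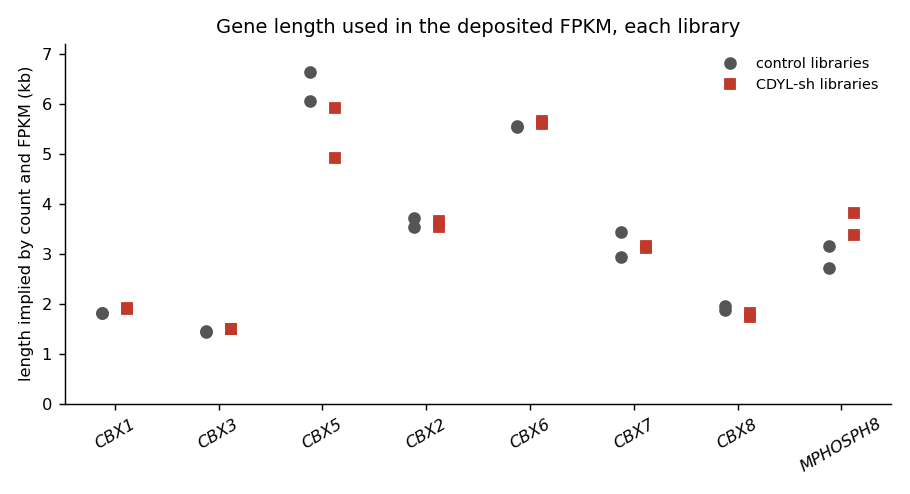
Gene length implied by count, FPKM and total count (y axis, kb, from 0) for each of the 8 genes in the control (grey circles) and CDYL-sh (red squares) libraries. CBX5 goes from 6641 and 6066 bases to 5917 and 4925 bases, and MPHOSPH8 from 3145 and 2720 bases to 3373 and 3819 bases.

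The counts of 6 members were whole numbers in all 4 libraries within 0.005, as for 58.9% of the genes tested. Those of *CBX3* and *CBX7* were not whole, and RSEM gives such counts where a read could come from more than 1 gene. *CBX3* has 10 annotated pseudogenes, of which 3 had a count, 32 counts in all over the 4 libraries. The counts of *HNRNPA2B1*, which overlaps *CBX3*, were not whole either. In control replicate 1 *CBX3* had 3127.07 counts and *HNRNPA2B1* 13562.93, and in each library the decimals of both genes add up to a whole number. How many reads were divided between these genes is not known. *CBX7* is overlapped on the other strand by a long noncoding gene over 3671 bases, and while the methods name an orientation mode for the alignment, whether the counting used strand is not given in the sources used here. The levels of *CBX3* and *CBX7* are uncertain to that extent.

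The genes that work with these readers were taken as lists. Over 5 lists with 68 genes tested, *CDYL* left out, 11 rose, 14 fell and 43 did not pass, which is 36.8% called against 25.7% of all genes. Their log2 fold changes had a median of -0.08. With 1 library left out this count was smaller, as was that of all genes, and both are given below. With offsets for GC content and transcript length the count of partner genes was 29, where 33.6% of all genes were called, along with the same number of members, 3. With limma on log2(FPKM + 1) no partner gene and no member passed, nor did *NPTXR* or *PARP4*, while *CDYL* did, where 2.96% of all genes were called. There 20 of 67 partner genes and 1 member had an unadjusted p under 0.05, beside 4176 of 15574 genes.

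Of 21 PRC1 partners, 6 fell, 1 rose and 14 did not pass, which is 33.3% called against 25.7% of all genes tested. *BCOR*, the corepressor that defines a form of PRC1 without a CBX protein, fell from a mean of 76.0 to 43.4 CPM (log2 fold change -0.81 ± 0.12 SE, adjusted p = 8.3e-05 from edgeR). Its relative *BCORL1* had a log2 fold change of -0.56 ± 0.11 (SE). *KDM2B*, which brings the *BCOR* form to CpG islands, had one of -0.49 ± 0.11 (SE), and did not pass without *CDYL*-sh replicate 2. The DNA-binding *E2F6*, of another variant form, had one of -0.77 ± 0.15 (SE), and *PCGF3*, a RING partner of yet another form, one of -0.52 ± 0.11 (SE), or -0.33 with limma on log2(FPKM + 1). The core ligase genes *RING1* and *RNF2* did not pass, at 0.26 ± 0.11 (SE) and 0.30 ± 0.13 (SE). *BMI1*, the RING partner in the canonical complex with CBX proteins, was at -0.18 ± 0.14 (SE). The remaining gene that fell, *PHC1*, had a log2 fold change of -0.41 ± 0.13 (SE, adjusted p = 0.0254 from edgeR). The 1 that rose, *MGA*, was at 0.61 ± 0.15 (SE, adjusted p = 0.00471 from edgeR), or 0.39 with limma on log2(FPKM + 1). *RING1*, *RNF2*, *BMI1*, *PHC1* and *MGA* were added to those named by the rule after their values were seen.

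Of 18 H3K9 methyltransferases and HP1 partners, 5 fell, 2 rose and 11 did not pass. That is 38.9% called against 25.7% of all genes tested. *SUV39H1*, itself a chromodomain protein, is an enzyme that makes the H3K9me3 read by HP1. It fell from a mean of 44.1 to 32.8 CPM (log2 fold change -0.42 ± 0.12 SE, adjusted p = 0.012 from edgeR). It did not pass without either *CDYL*-sh library. *EHMT1*, a methyltransferase for H3K9me1 and H3K9me2, had a log2 fold change of -0.34 ± 0.10 (SE), and did not pass with any 1 of the 4 libraries left out. *LMNB1*, lamin B1 of the nuclear envelope, had one of -0.49 ± 0.11 (SE), and did not pass without control replicate 1. *POGZ*, a zinc finger protein that binds HP1, had one of -0.59 ± 0.12 (SE), or -1.02 with limma on log2(FPKM + 1), where its control libraries lay apart at 10.77 and 21.15 FPKM (6.85 and 7.02 FPKM in *CDYL*-sh). *NIPBL*, the cohesin loader that HP1 can bind, rose by 0.69 ± 0.13 on the log2 scale (SE). It rose by 0.38 with offsets for GC content and transcript length, and was at 0.43 with limma on log2(FPKM + 1). *SUV39H2*, looked up after the values were seen, was at 0.33 ± 0.19 (SE) and did not pass (adjusted p = 0.22 from edgeR).

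Of 6 HUSH partners, 2 were higher, none was lower and 4 did not pass, which is 33.3% called against 25.7% of all genes tested. *TASOR2*, a paralog of the HUSH subunit TASOR, had a log2 fold change of 0.54 ± 0.15 (SE, adjusted p = 0.012 from edgeR). It was 0.82 without control replicate 1, and 0.30 without control replicate 2, where it did not pass. *ATF7IP*, which stabilizes the methyltransferase SETDB1, had one of 0.39 ± 0.12 (SE), and did not pass without control replicate 2, without either *CDYL*-sh library, or with offsets for GC content and transcript length (0.13). The 2 other subunits of HUSH beside MPP8, and its effectors, were also looked up after the values were seen. *TASOR* was at 0.41 ± 0.19 (SE) and *PPHLN1*, which encodes periphilin, at -0.04 ± 0.11 (SE). *SETDB1* and the ATPase gene *MORC2* were at -0.14 ± 0.13 (SE) and 0.03 ± 0.12 (SE).

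Of 14 other chromodomain genes tested, *CDYL* left out, 3 rose, 2 fell and 9 did not pass. That is 35.7% called against 25.7% of all genes tested. *CHD3*, a remodeller of the NuRD complex, had a log2 fold change of -0.61 ± 0.11 (SE, adjusted p = 0.000722 from edgeR). *CHD6* and *CHD1*, remodellers of other classes, rose by 0.61 ± 0.13 (SE) and 0.64 ± 0.15 (SE), the latter by 0.34 with offsets for GC content and transcript length, and at 1.07 with limma on log2(FPKM + 0.1), where it did not pass. *ARID4B*, of a histone deacetylase complex, had a log2 fold change of 0.51 ± 0.18 (SE), and did not pass with DESeq2 or limma-voom, without control replicate 1, without *CDYL*-sh replicate 2 or with those offsets, where it was 0.28. The paralog of *CDYL*, *CDYL2*, had 5, 4, 15 and 4 counts and did not pass the filter.

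**Figure D5:**
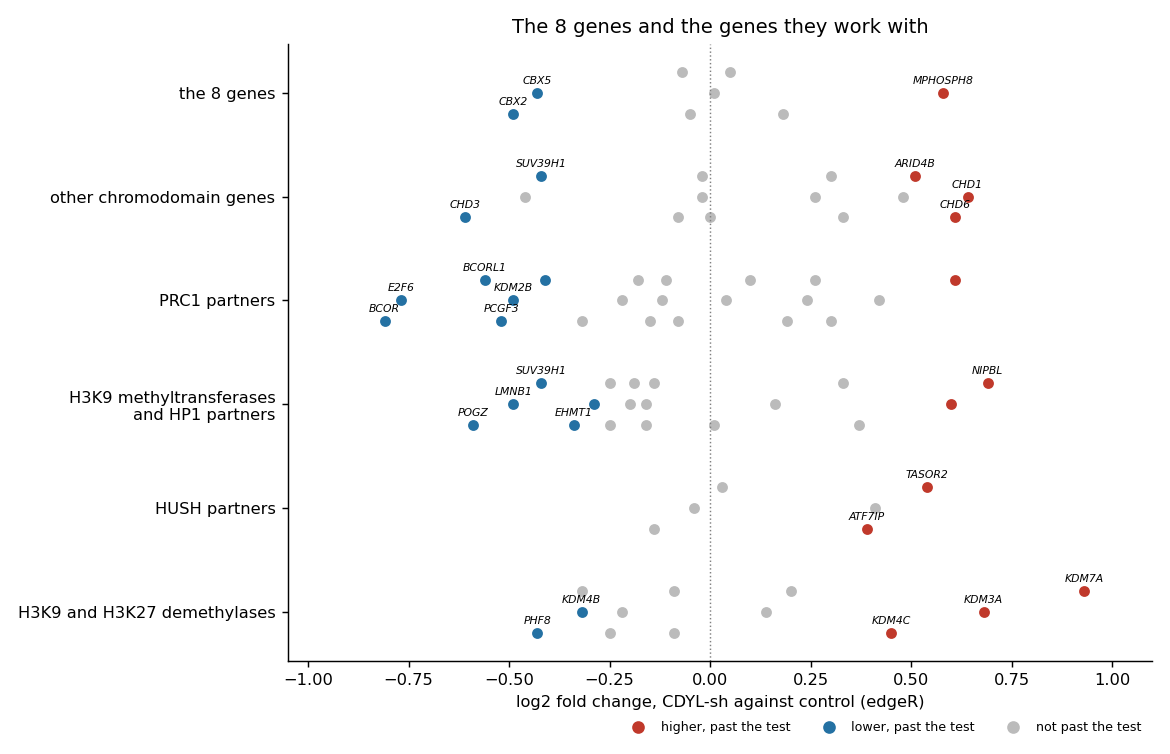
Log2 fold change (x axis, edgeR) of each tested gene of the 8 readers and of the 5 partner lists, 1 point per gene, red where higher and blue where lower past the test and grey otherwise, spread vertically within a list only to separate points, with CDYL left out. The PRC1 list holds 6 lower genes and 1 higher, and the HUSH list 2 higher and none lower. That is 33.3% of each list, beside 25.7% of all genes tested.

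The partner genes most like each changed member were found by the Euclidean distance between log2(CPM + 0.5) profiles over the 4 libraries, each taken relative to its own control mean, among 68 genes. For *CBX2* they were *KDM2B* at a distance of 0.06 and *BCORL1* at 0.10. Those nearest to *CBX5* were *LMNB1* at 0.11 and *MSL3*, a chromodomain subunit of a histone acetyltransferase complex, at 0.13, which itself did not pass (log2 fold change -0.46 ± 0.17 SE). *CHD1* at 0.14 and *NIPBL* at 0.15 were nearest to *MPHOSPH8*. The points share 4 libraries and their depth, so these distances are a description.

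Genes of cell division moved in both directions in the same libraries. Of 18 proliferation markers, 4 rose, 5 fell and 9 did not pass, which is 50% called against 25.7% of all genes tested. Their summed level was 3400 and 3190 CPM in control and 3140 and 2940 CPM in *CDYL*-sh. The part of proliferation in the changes of *CBX2*, *CBX5* and *MPHOSPH8* was not tested.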

How the data were processed

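RNA-seq libraries of Ishikawa cells, 2 control and 2 *CDYL*-sh, were sequenced by the authors as paired reads and aligned with TopHat to GRCh38.p10. RSEM and edgeR are named as well in the processing notes of the submitters. The deposited table gives expected counts and FPKM (the authors' fragments relative to transcript length and library depth) for 58522 genes, 98.1% with a symbol. The groups came from the labels. No column was left unassigned.

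Expected counts were rounded and tested with edgeR 4.0.16 in R 4.3.3 (TMM, filterByExpr, quasi-likelihood test, fold changes with a prior count of 2, Benjamini-Hochberg over 16158 genes, threshold 0.05, two-sided). Standard errors were taken from the F statistic, and 95% intervals cover the spread between libraries only. FPKM was tested with limma 3.58.1 on log2(FPKM + 1) in genes with a mean of at least 0.5, which understates changes of low genes. Alternatives were DESeq2 1.42.0, limma-voom, other scalings and filters, each library left out, a replicate block, and offsets from a smooth (mgcv 1.9.3) on GC content and transcript length. The code was tested on simulated data. Positions came from GENCODE on GRCh38 and promoter windows from RefSeq on GRCh38.p14.

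The members and gene lists were chosen with earlier results of these data known. Named genes were the members, up to 5 genes of smallest adjusted p per partner list whose groups did not overlap, the neighbours of members, and for each changed member its 2 nearest genes.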

Additional observations from a re-analysis of the deposited data

How the results depend on the processing

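The call of 3 members was the same in 10 of the 14 alternatives, was 2 without control replicate 1, and ranged from 0 to 3 with 1 library left out. The 0 came from edgeR without *CDYL*-sh replicate 2, with log2 fold changes of -0.39 for *CBX2*, -0.39 for *CBX5* and 0.57 for *MPHOSPH8*. With limma on log2(FPKM + 1) and on log2(FPKM + 0.1) 0 members passed. In each of these fits 1 member had an unadjusted p under 0.05, beside 4176 and 4179 of 15574 genes. The cause was not tested. The count of all genes, 4157, became 461 and 507 with these FPKM fits and 2082 to 4006 with 1 library left out. The 25 partner genes became 0 and 0, with 20 of 67 at an unadjusted p under 0.05 in each, and 13 to 21. Leaving out a library leaves 1 sample in a group, assumed to vary like the other group.

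Among members that did not pass, *CBX1* was at -0.05 and -0.05 in the FPKM fits and at -0.08 to 0.09 with 1 library left out. *CBX3* was at -0.08 with offsets for GC content and transcript length. *CBX6* was at 0.01 with the offsets and at -0.14 to 0.04 with 1 library left out, and *CBX7* at -0.08 to 0.15. *CBX8* was at 0.04 with the offsets, at 0.04 and 0.04 in the FPKM fits, and at -0.23 to 0.07 with 1 library left out. The labels do not say whether same-numbered libraries share a batch. The deviations of same-numbered libraries correlated at 0.03, and a shared batch was not tested. With a replicate block 3 members, 35 partner genes and 5393 genes passed.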

Other observations

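The enzymes that remove the marks read by these proteins moved in both directions. Of 12 demethylases of H3K9 and H3K27, 3 rose, 2 fell and 7 did not pass edgeR's test. That is 41.7% called against 25.7% of all genes tested. *KDM3A*, an H3K9 demethylase induced by low oxygen, rose from a mean of 11.5 to 18.5 CPM (log2 fold change 0.68, standard error 0.16, adjusted p = 0.00428 from edgeR), but did not pass without *CDYL*-sh replicate 2, or with limma on log2(FPKM + 1), where it was 0.32. *PHF8*, which removes H3K9me2, fell from a mean of 46.8 to 34.6 CPM (log2 fold change -0.43, standard error 0.13), but did not pass without control replicate 1 or without *CDYL*-sh replicate 2. *KDM7A*, a relative of *PHF8*, was at a low level, with means of 1.75 and 3.38 CPM (log2 fold change 0.93, standard error 0.28). It did not pass with DESeq2, with offsets for GC content and transcript length, where it was 0.61, or without control replicate 1 or either *CDYL*-sh library. *KDM4B* at -0.32 (standard error 0.11) and *KDM4C* at 0.45 (standard error 0.16) each lost the call without control replicate 1 or either *CDYL*-sh library, *KDM4B* also without control replicate 2 or with scaling by library size only, and *KDM4C* also with DESeq2 or with no filter on low counts. None of the demethylases tested with limma on FPKM passed, and *KDM7A* was not tested there, being under the minimum mean FPKM of 0.5. The H3K27 demethylases *KDM6A* and *KDM6B*, looked up after the values were seen, were at 0.20 (standard error 0.14) and -0.09 (standard error 0.12).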
